A study of Mus musculus with 13 samples.

Results

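The 10 genes described here, Fos, Fosb, Jun, Junb, Egr1, Arc, Nr4a1, Npas4, Ier2 and Dusp1, are activity-dependent immediate early genes, taken from the 21893 genes with a symbol in the platform annotation by matching that symbol, and each was read by 1 probe. They were measured in the superior cervical and coeliac ganglia, the sympathetic ganglia of the neck and upper abdomen, using total RNA on 1-colour Agilent arrays. One set of mice was TH-MYCN+/+, homozygous for a human MYCN transgene driven by a tyrosine hydroxylase promoter, which is active in catecholamine-making cells and gives a mouse model of neuroblastoma. The other mice were wild-type littermates of the same age, and there were 6 TH-MYCN+/+ and 7 wild-type arrays, all at 2 weeks of age. The labels name no further allele or agent, and they do not say whether an array is 1 animal or a pool, so the p-values rest on the scatter among these arrays, part of which may be technical. Values are log2 intensities, a base inferred from their range, and levels of different probes are not comparable with each other.

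Immediate early genes are switched on within minutes of a stimulus without new protein synthesis. In sympathetic neurons, acetylcholine released by preganglionic fibres opens nicotinic receptors, calcium enters and kinases activate the factors CREB and SRF, which are already bound near these genes, while growth factors reach the same genes through ERK kinases. Many of the products are transcription factors, others act at synapses or switch the response off, and their transcripts decay quickly. Glia, fibroblasts, endothelium and immune cells also induce most of them, so the genes do not mark 1 cell type.

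Arrays of one genotype correlated across genes at 0.989 to 0.994 in TH-MYCN+/+ and 0.979 to 0.992 in wild type. Of 21893 genes, 53.2% differed between the genotypes at a Benjamini-Hochberg adjusted p under 0.05 in limma, 18.9% higher and 34.3% lower in TH-MYCN+/+, and the median log2 fold change over all genes was -0.15. Of the called genes 35.5% were higher, a share that was 22.0% after median centring, 66.8% in the values as deposited and 78.2% with spike-in scaling, where the median gene shifted by -0.44, 0.15 and 0.30. A background level was set on each array from its ERCC control probes, and 9 of the 10 immediate early genes lay above it on all 13 arrays, the exception being Junb. Markers of neighbouring tissue stood out on 4 arrays, the highest of their genotype by the log2 of the summed marker intensities. These were skeletal muscle on TH-MYCN+/+ replicate 6 (16.14), adipose tissue on TH-MYCN+/+ replicate 2 (15.23), adrenal cortex on wild-type replicate 1 (11.53) and lymphoid cells on wild-type replicate 3 (12.8).

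Fos, Fosb, Arc and Nr4a1 fell in TH-MYCN+/+ ganglia, and Junb was called lower near the limit of detection. Jun rose, and Egr1, Npas4, Ier2 and Dusp1 did not pass the test. Thus 6 of 10 were called, against 53.2% of all genes, and 5 of 10 were called lower, against 34.3% of all genes, so the counts are near what the genes as a whole show. The genes as a whole include dim ones. Among the 15928 genes above background on 6 or more arrays, 11186 were called, 7179 of them lower. With that filter Fos, Fosb, Arc and Nr4a1 were called lower and Jun higher, while Junb was left out. The groups did not overlap for 4 of 10 members, against 35.4% of all genes. The median log2 fold change of the 10 was -0.74, or -0.59 relative to the median gene, and it was -0.28 with Junb at its bound. An alternative chosen after seeing the data left out the 4 arrays on which markers of neighbouring tissue stood out. In that fit 5 of 10 were called lower and 1 higher, against 30.9% of all genes lower and 16.3% higher (47.2% in either direction). The arrays kept were not free of such markers. On them the summed log2 level of adipose markers was 12.19 to 13.12 in TH-MYCN+/+ and 14.27 to 14.89 in wild type. With arrays scaled by their E1A spike-in probes, 3 of 10 were called, Fosb and Arc lower and Jun higher, against 33.2% of all genes (7.21% lower and 25.9% higher).

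**Figure D1:**
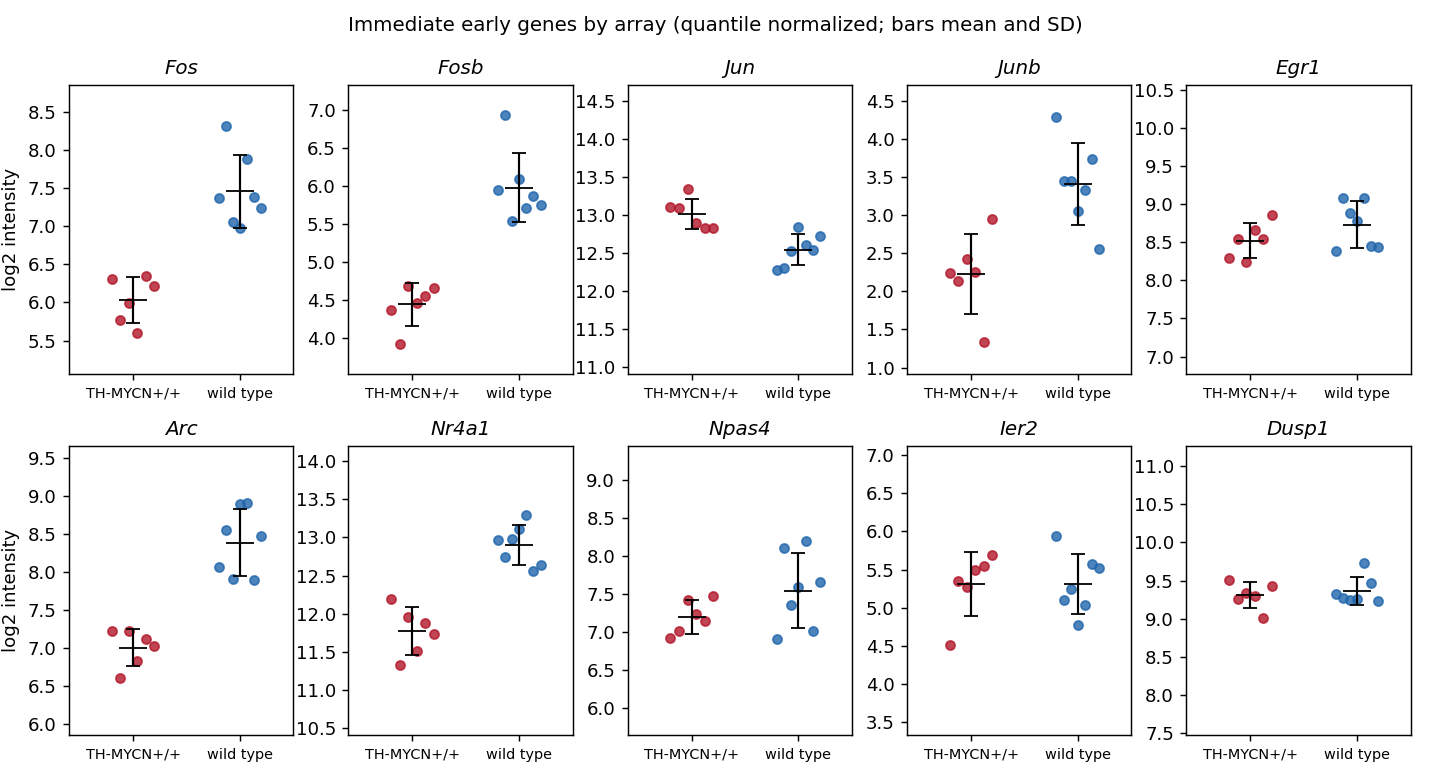
Quantile-normalized log2 intensity (vertical axis, each panel spanning the same log2 range) of the 10 genes on 6 TH-MYCN+/+ arrays (left in each panel) and 7 wild-type arrays (right). Points are arrays, and bars give the mean and SD. Fos, Fosb, Arc and Nr4a1 show no overlap between genotypes, while Jun, Junb, Egr1, Npas4, Ier2 and Dusp1 overlap.

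Fos and Fosb encode the FOS partners of the AP-1 transcription factor, which bind DNA only when paired with a JUN protein. Fos stood at 5.60 to 6.34 (median 6.10) in TH-MYCN+/+ ganglia, against 6.97 to 8.32 (median 7.37) in wild type. Every TH-MYCN+/+ array lay below every wild-type array, and wild-type replicate 2 was the highest. The means were 6.04 ± 0.30 in the 6 TH-MYCN+/+ samples and 7.46 ± 0.48 in the 7 wild-type samples (SD, n = 6 and 7), a log2 fold change of -1.42 ± 0.22 (SE) with a limma adjusted p of 9.06e-05, or 2.68-fold lower. Fosb stood at 3.92 to 4.68 (median 4.51) in TH-MYCN+/+, against 5.54 to 6.94 (median 5.87) in wild type. Wild-type replicate 2 was again the highest array, and no TH-MYCN+/+ array reached the lowest wild-type one. Fosb was 2.90-fold lower, a log2 fold change of -1.54 ± 0.21 (SE) with a limma adjusted p of 3.26e-05. After spike-in scaling the difference of Fos was -0.77 and no longer passed (adjusted p = 0.0687), while that of Fosb was -0.82 and passed (adjusted p = 0.0331).

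Jun, the AP-1 subunit that can also pair with itself, was the single member that rose. Its level was 12.83 to 13.34 (median 12.99) in TH-MYCN+/+ ganglia, against 12.28 to 12.84 (median 12.54) in wild type. The groups overlapped slightly, since wild-type replicate 4 (12.84) lay just above TH-MYCN+/+ replicates 5 and 6 (12.83 each). Jun averaged 13.01 ± 0.20 in the 6 TH-MYCN+/+ samples and 12.54 ± 0.21 in the 7 wild-type samples (SD, n = 6 and 7), 1.38-fold higher (log2 fold change 0.47 ± 0.11 SE, limma adjusted p = 0.00327). After median centring the difference was 0.20 and the call ended (adjusted p = 0.229), and after spike-in scaling it was 0.94 (adjusted p = 0.00481). Junb, a JUN protein with weaker activating ability than Jun, was near the limit of detection, above background on 0 of 6 TH-MYCN+/+ arrays and on 4 of 7 wild-type arrays. The background level itself, in deposited values, was 2.88 to 3.99 on TH-MYCN+/+ arrays and 2.16 to 3.56 on wild-type arrays. These counts, and the bound given below, therefore depend partly on a limit that was mostly higher in TH-MYCN+/+. The Junb values were as follows. Junb stood at 1.33 to 2.96 (median 2.25) in TH-MYCN+/+, against 2.56 to 4.30 (median 3.45) in wild type. It was called lower (limma adjusted p = 0.00273), but the data give only an approximate bound, 1.10-fold lower (log2 0.14). For it each TH-MYCN+/+ value is raised to the lowest signal above background on its array. Wild-type values are kept as read, though not all were above background. The SE of the Junb difference was 0.28, larger than this bound, so the size of any fall is not settled. That call ended after spike-in scaling (-0.43, adjusted p = 0.299) and in the values as deposited (-0.59, adjusted p = 0.187).

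Nr4a1, an orphan nuclear receptor induced by calcium and by growth factors, stood at 11.32 to 12.19 (median 11.81) in TH-MYCN+/+ ganglia, against 12.56 to 13.29 (median 12.97) in wild type. The genotypes did not overlap, and TH-MYCN+/+ replicate 2 was the lowest array. It was 2.19-fold lower (log2 fold change -1.13 ± 0.16 SE, limma adjusted p = 3.95e-05), with a difference of -0.66 after spike-in scaling that did not pass (adjusted p = 0.0655). Arc encodes a cytoskeleton-associated protein that takes part in removing AMPA receptors from synapses in brain neurons. It stood at 6.61 to 7.23 (median 7.07) in TH-MYCN+/+, against 7.89 to 8.91 (median 8.48) in wild type. All TH-MYCN+/+ arrays lay below all wild-type arrays, and wild-type replicates 4 and 5 were the highest. Arc averaged 7.01 ± 0.24 in the 6 TH-MYCN+/+ samples and 8.39 ± 0.44 in the 7 wild-type samples (SD, n = 6 and 7), 2.60-fold lower with a limma adjusted p of 4.51e-05. After spike-in scaling its difference was -0.75 (adjusted p = 0.0451).

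Egr1, a zinc finger factor that is a standard readout of ERK signalling, did not pass the test. Its values were 8.25 to 8.85 (median 8.54) in TH-MYCN+/+ ganglia, against 8.39 to 9.09 (median 8.78) in wild type, and the groups overlapped. The log2 fold change was -0.21 (95% interval -0.53 to 0.11, limma adjusted p = 0.261). Npas4, a neuron-selective factor induced by calcium entry, had values of 6.92 to 7.48 (median 7.19) in TH-MYCN+/+, against 6.91 to 8.20 (median 7.59) in wild type. The wild-type arrays were the more scattered, with replicates 2, 4, 5 and 7 above every TH-MYCN+/+ array and replicates 1 and 6 near the lowest of them. Its log2 fold change was -0.34 (95% interval -0.80 to 0.11, limma adjusted p = 0.196). Ier2, a nuclear protein induced by serum and growth factors, stood at 4.51 to 5.69 (median 5.42) in TH-MYCN+/+, against 4.78 to 5.95 (median 5.24) in wild type. Its arrays overlapped throughout, and it averaged 5.31 ± 0.42 in the 6 TH-MYCN+/+ samples and 5.31 ± 0.39 in the 7 wild-type samples (SD, n = 6 and 7), with an interval of -0.47 to 0.46 for the log2 fold change and a limma adjusted p of 0.990. Dusp1, the nuclear phosphatase that switches off MAP kinases and so limits the response, stood at 9.01 to 9.51 (median 9.32) in TH-MYCN+/+, against 9.23 to 9.73 (median 9.27) in wild type. Its log2 fold change was -0.05 (95% interval -0.27 to 0.17, limma adjusted p = 0.691). All 4 intervals leave room for smaller differences, and after quantile normalization none reaches the falls fitted for Fos, Fosb, Arc or Nr4a1. Those falls have errors of their own, and the interval of Nr4a1 ends at -0.80, where that of Npas4 begins. Differences between genes were not tested. After spike-in scaling the genes that did not pass had positive differences, 0.37 for Egr1, 0.29 for Npas4, 0.71 for Ier2 and 0.50 for Dusp1, none of which passed.

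**Figure D2:**
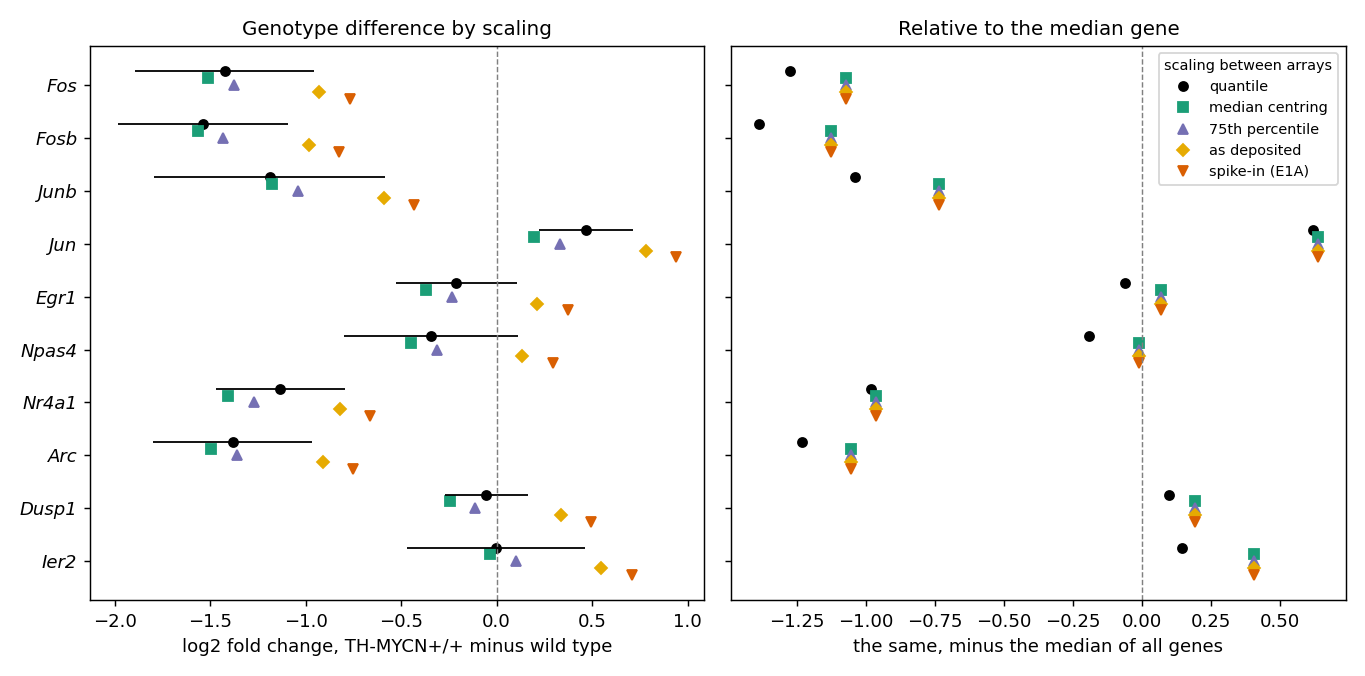
Log2 fold change (TH-MYCN+/+ minus wild type, horizontal axis) of each gene under 5 scalings between arrays, on the left as fitted and on the right minus the median of all genes. Horizontal lines are 95% intervals after quantile normalization. Fos, Fosb, Junb, Nr4a1 and Arc stay left of 0 and Jun stays right of 0 under all 5, while the other 4 genes change side on the left.

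The size of the falls depended on the scaling. Relative to the median gene, Fos differed by -1.27 after quantile normalization and by -1.07 under each scaling that moves a whole array by 1 constant. The same pair of values was -1.39 and -1.13 for Fosb, -1.23 and -1.06 for Arc, -0.98 and -0.97 for Nr4a1, and -1.04 and -0.74 for Junb. Jun differed by 0.62 and 0.64. Dusp1 stood at 0.10 and 0.19, Ier2 at 0.15 and 0.40, Egr1 at -0.06 and 0.07, and Npas4 at -0.19 and -0.01. These are differences of fitted values and carry no test of their own.

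Promoter windows from RefSeq (build GRCm38.p6) matched 7 of the 10 genes, not Egr1, Arc or Ier2. The 250 bases before 1 annotated start are shown for 3 genes that fell (Fos, Fosb and Nr4a1), for Jun, which rose, and for Dusp1, which did not pass, to let the sequences be read beside the different responses. For Fosb, Nr4a1 and Npas4 that start lies inside the annotated span of the gene, so their windows do not precede the whole gene. Capitals mark TGACG, the core of the CREB site, on either strand, so that it reads CGTCA where it lies on the other.
Fos, chr12:85473640-85473889, plus strand: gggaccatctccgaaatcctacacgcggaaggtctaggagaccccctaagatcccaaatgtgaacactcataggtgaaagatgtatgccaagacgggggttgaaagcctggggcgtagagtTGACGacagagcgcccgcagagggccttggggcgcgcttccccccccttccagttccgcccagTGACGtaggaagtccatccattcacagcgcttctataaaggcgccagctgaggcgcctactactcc
Fosb, chr7:19310046-19310295, minus strand: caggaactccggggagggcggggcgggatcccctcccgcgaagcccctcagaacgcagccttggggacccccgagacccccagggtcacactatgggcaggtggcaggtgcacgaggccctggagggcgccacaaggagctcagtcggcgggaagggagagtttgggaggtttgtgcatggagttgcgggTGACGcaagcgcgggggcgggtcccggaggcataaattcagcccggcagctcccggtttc
Nr4a1, chr15:101266596-101266845, plus strand: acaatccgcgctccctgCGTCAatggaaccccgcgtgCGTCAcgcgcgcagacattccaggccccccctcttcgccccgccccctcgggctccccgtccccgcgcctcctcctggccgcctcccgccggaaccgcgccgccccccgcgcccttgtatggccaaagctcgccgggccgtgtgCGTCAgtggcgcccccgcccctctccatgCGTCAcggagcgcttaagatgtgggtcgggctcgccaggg
Jun, chr4:95052223-95052472, minus strand: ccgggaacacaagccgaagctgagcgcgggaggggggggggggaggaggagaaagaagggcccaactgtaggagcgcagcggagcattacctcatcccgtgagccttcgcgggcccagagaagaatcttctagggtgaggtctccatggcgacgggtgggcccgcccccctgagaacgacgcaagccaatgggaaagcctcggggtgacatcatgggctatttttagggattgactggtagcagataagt
Dusp1, chr17:26508473-26508722, minus strand: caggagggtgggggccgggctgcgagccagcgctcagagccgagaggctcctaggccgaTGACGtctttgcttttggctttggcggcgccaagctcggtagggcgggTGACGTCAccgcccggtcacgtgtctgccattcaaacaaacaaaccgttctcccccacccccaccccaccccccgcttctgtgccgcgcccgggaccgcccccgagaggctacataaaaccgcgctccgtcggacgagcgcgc
The core TGACG was present in 6 of the 7 windows, against 17.8% of 32851 RefSeq windows of this length. It occurred 2 times in Fos, 1 time each in Fosb and Junb, 4 times in Nr4a1, 2 times in Npas4 and 3 times in Dusp1, and in the Jun window it was not found. The full palindrome TGACGTCA, which holds 2 overlapping cores, was found in Dusp1 alone of the 7, against 1.55% of all windows. The letters CACGTG, the E-box that MYC family proteins bind, were also found in Dusp1 alone, against 6.02%, and the SRF site called the CArG box in none of the 7, against 1.47%. The windows behind these shares were not matched to the members for base composition. The shares therefore do not measure an excess or a lack of sites. Bases beyond the 250, and the promoters of Egr1, Arc and Ier2, were not searched, so a gene may hold a site that was not seen here. Windows with the core thus belong both to genes that fell, such as Fos and Nr4a1, and to Npas4 and Dusp1, which did not pass.

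Arrays of one genotype differed in which immediate early genes were high. Among wild-type arrays, replicate 2 was highest for Fos and Fosb, replicate 5 for Egr1, Arc, Nr4a1, Npas4 and Dusp1, and replicate 1 for Junb and Ier2. Replicates 2 and 5 were high together for Fos (8.32 and 7.89), Egr1 (9.08 and 9.09) and Npas4 (8.11 and 8.20). Among TH-MYCN+/+ arrays, replicate 2 was lowest for Fosb, Arc and Nr4a1, replicate 4 for Fos, and replicate 6 was highest for Egr1, Npas4 and Ier2. The order of TH-MYCN+/+ arrays for Junb has no meaning, since it was above background on none of them. Fos was set against each of the other 9 members within each genotype, 18 relations in all. Pearson's r ran from -0.25 to 0.76 in TH-MYCN+/+ and from -0.57 to 0.67 in wild type, and none passed by an exact two-sided permutation test (lowest adjusted p = 0.617 in both). Over all arrays of a genotype no relation had an unadjusted permutation p under 0.05, and by Spearman's rho none passed either (lowest adjusted p = 0.918). The highest r was with Nr4a1 in TH-MYCN+/+ (r = 0.76, exact permutation p = 0.0889, rho = 0.66, exact permutation p = 0.175) and with Fosb in wild type (r = 0.67, exact permutation p = 0.101, rho = 0.21, exact permutation p = 0.662). Without the 2 arrays farthest from the median of Fos, which narrows its range and leaves 4 TH-MYCN+/+ and 5 wild-type arrays, these became 0.11 and 0.05. Over all members r then ran from -0.76 to 0.33 in TH-MYCN+/+ and from -0.91 to 0.91 in wild type. In wild type Ier2 went to 0.91 (unadjusted exact permutation p = 0.025, the single one of 18 under 0.05), against -0.12 over all 7 arrays, and Egr1 and Npas4 turned negative, at -0.91 and -0.72, against 0.55 and 0.62. Because these arrays were left out by their own Fos values and few remain, the changes cannot show whether the relations of Fos are stable.

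**Figure D3:**
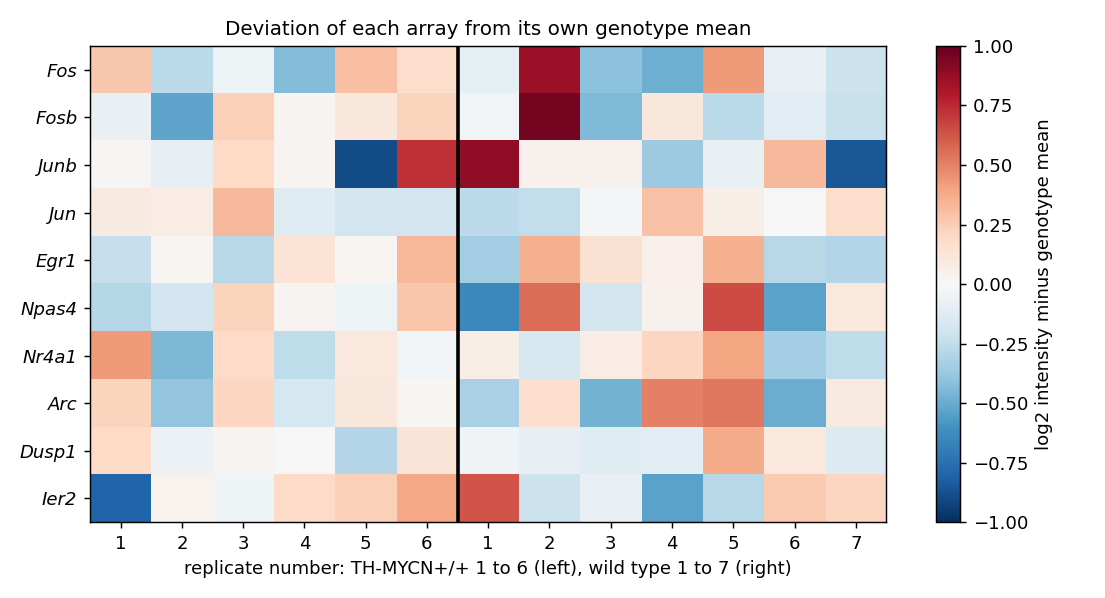
Each cell gives the quantile-normalized log2 intensity of 1 gene (rows) on 1 array (columns) minus the mean of its own genotype, with TH-MYCN+/+ replicates 1 to 6 left and wild-type replicates 1 to 7 right of the black line. Wild-type replicate 2 stands high for Fos, Fosb, Egr1 and Npas4, and wild-type replicate 5 for Fos, Arc, Npas4, Nr4a1, Egr1 and Dusp1. No array is high for all 10 genes.

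In values centred on each genotype mean, over 13 arrays and 14243 genes above background on all of them, the genes whose pattern was most like that of Fos were Oxct1, Ctnna1, Sox9, Cnn3, Gjb2, Fam181b, BC048403 and Ocrl, with Pearson's r of 0.88 to 0.90. Of the members above background on all arrays, Fosb ranked 1560 (r = 0.61) and Npas4 2987 (r = 0.49) in that order. Arc, Egr1, Dusp1 and Nr4a1 ranked 4394 to 6221 (r = 0.39 to 0.26), while Ier2 ranked 10721 (r = -0.16) and Jun 12689 (r = -0.42). For Egr1 they were Arhgef5, Arsj, Gpr20, C130074G19Rik, Acta2, Larp4b, Extl3 and Gas1, with r of 0.79 to 0.89, and Npas4 ranked 55 (r = 0.70). The other members ranked from 2014 (Fos, r = 0.35) to 12762 (Jun, r = -0.33), with Ier2 at 10918 (r = -0.17). These values describe the same 13 arrays, are the highest of many and carry no test.

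The counts of the lists that follow stand beside those of all genes, of which 18.9% were called higher and 34.3% lower. With spike-in scaling these shares were 25.9% and 7.21%. After quantile normalization, further genes of the AP-1 families both rose and fell. Of 10 other AP-1 and ATF genes, 2 were called higher and 2 lower, with a median log2 fold change of -0.04, where the median of all genes was -0.15. Fosl2, a further FOS protein, was 2.05-fold lower (limma adjusted p = 6.20e-06), and a dimmer probe of it, above background on 2 of 6 TH-MYCN+/+ and 4 of 7 wild-type arrays, did not pass. Jdp2, which dimerises with JUN and represses, was 1.95-fold lower (limma adjusted p = 1.76e-04). Batf3, a JUN partner of immune cells, was 3.17-fold higher (limma adjusted p = 1.42e-04). Mafg was called higher by 1 probe and lower by another, so its direction is not settled. With spike-in scaling 3 genes of this list were called higher and 0 lower by limma (0 lower at an unadjusted p under 0.05), Fosl2 standing at -0.47 (adjusted p = 0.180) and Jdp2 at -0.41 (adjusted p = 0.223).

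Among 10 other EGR, NR4A and KLF genes with Myc, 6 were called lower and 0 higher by limma (also 0 higher at an unadjusted p under 0.05), with a median of -0.51. Egr4, a zinc finger factor of the Egr1 family, stood at 3.23 to 4.70 (median 3.65) in TH-MYCN+/+ ganglia, above background on 5 of 6 arrays, against 4.92 to 6.20 (median 5.52) in wild type. No array of the genotypes overlapped, and Egr4 was 3.42-fold lower (limma adjusted p = 6.06e-05). Klf6 was 1.48-fold lower (limma adjusted p = 3.08e-05), while Klf10 and Myc, at -0.45 and -0.57, were called lower but stood at 0.06 and 0.04 after spike-in scaling. Egr3 and Nr4a3 were below background on all arrays. After spike-in scaling 1 gene of this list was called higher and 1 lower.

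Genes that dampen the response were measured next. Of 19 feedback inhibitors and RNA decay genes 11 were called lower and 1 higher, with a median of -0.71, and with spike-in scaling 1 was lower and 2 higher. The 11 include Dusp5, which was below background on all arrays, so its call rests on no measured level. Zfp36l1, which binds AU-rich elements and speeds mRNA decay, was 2.71-fold lower (limma adjusted p = 1.17e-05). Ier3 was 2.26-fold lower (limma adjusted p = 2.50e-06), and Nab1, a corepressor of EGR proteins, was 1.95-fold lower (limma adjusted p = 2.00e-05). Spry1, an inhibitor of receptor tyrosine kinase signalling, was 1.60-fold lower (limma adjusted p = 1.65e-05). Dusp1 stood at -0.05 as given above, and the difference between it and these genes was not tested.

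Later effectors of neuronal activity included 1 gene with a large rise. Bdnf, brain-derived neurotrophic factor, whose promoters respond to calcium through CREB and NPAS4 in brain neurons, stood at 9.82 to 10.90 (median 10.26) in TH-MYCN+/+ ganglia, against 5.02 to 5.75 (median 5.30) in wild type. Every TH-MYCN+/+ array lay above every wild-type array. It was 31.8-fold higher (log2 fold change 4.99 ± 0.16 SE, limma adjusted p = 2.68e-10), and the difference lay between 4.84 and 5.58 under all alternatives run. Of the 19 measured effectors 13 were called lower and Bdnf alone higher, with a list median of -0.66. Crem, a CREB family gene with an inducible repressor form, was 2.56-fold lower (limma adjusted p = 5.97e-07) by the brightest of its 4 probes. Pcsk1, a prohormone convertase, and Scg2, a secretogranin, were 3.11-fold and 2.71-fold lower. With spike-in scaling 7 were lower and Bdnf was still higher. Where genes dim in one or both genotypes were set to their bound or left out, the list medians became -0.08 for the other AP-1 and ATF genes, -0.57 for the other EGR, NR4A and KLF genes, -0.66 for the feedback inhibitors and -0.80 for these effectors.

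**Figure D4:**
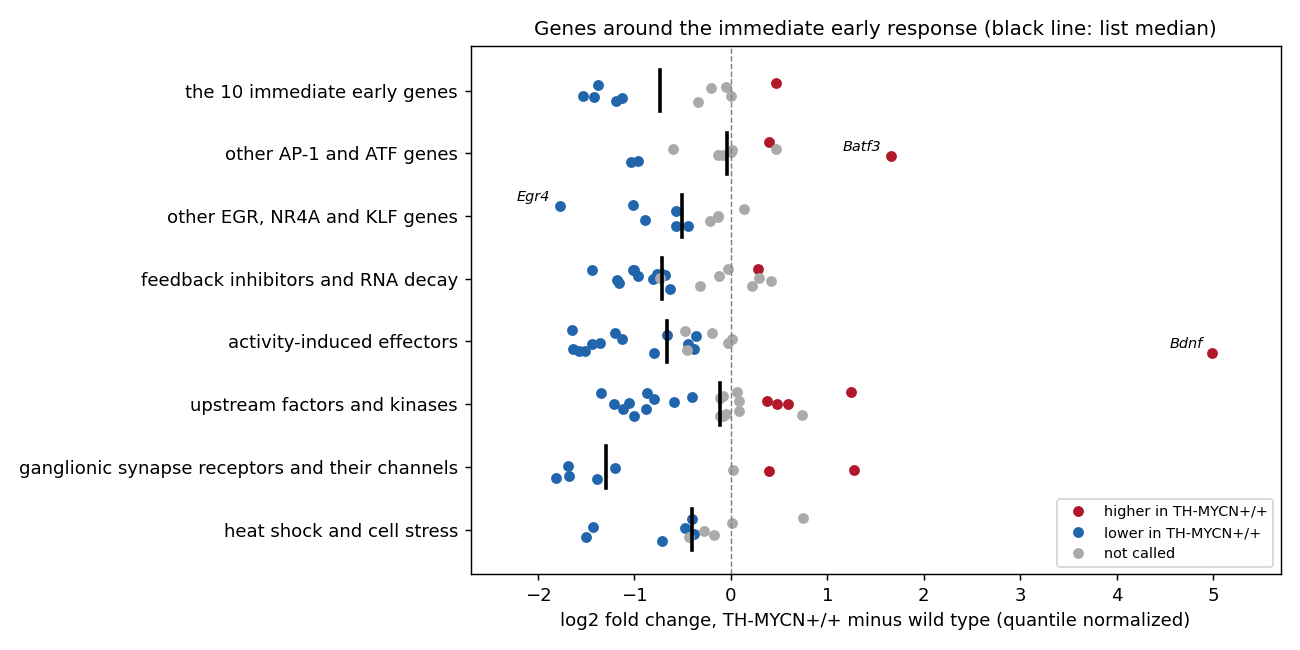
Log2 fold change (TH-MYCN+/+ minus wild type, horizontal axis) of every measured gene of the 10 immediate early genes and 7 related lists (rows). Each point is a gene, coloured by its call at an adjusted p under 0.05, and black lines are list medians. Bdnf stands at 4.99, far right of all others, and most called points lie left of 0.

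Upstream of the response lie the receptors and the signalling genes. Of 8 acetylcholine receptor genes 5 were called lower and 2 higher, with a median of -1.29, and with spike-in scaling 4 were lower and 2 higher. Chrna5 and Chrnb4, subunits of the ganglionic nicotinic receptor, were 3.51-fold and 3.23-fold lower (limma adjusted p = 5.52e-06 and 3.30e-05), and the muscarinic receptor Chrm1 was 2.62-fold lower (limma adjusted p = 3.37e-05). Chrna7 was 2.42-fold higher by its brighter probe, whereas its other probe was called lower at -0.45, so its direction is not settled. Of 23 measured upstream factors and kinases 10 were called lower and 4 higher, with a median of -0.12. The calcium-calmodulin kinases Camk2a and Camk2d were 2.54-fold and 2.01-fold lower, and Elk3, an SRF partner, was 2.32-fold lower. Cacna1d, an L-type calcium channel, was 2.38-fold higher (limma adjusted p = 6.81e-06) and both its probes rose. With spike-in scaling 0 of this list were called lower by limma (2 at an unadjusted p under 0.05) and 5 were higher. Of all genes 7.21% were lower and 25.9% higher in that fit.

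Heat shock and stress genes, another group that responds rapidly, were measured beside these. Of 11 measured heat shock and cell stress genes 6 were called lower and 0 higher by limma (also 0 higher at an unadjusted p under 0.05), with a median of -0.40, and with spike-in scaling 2 were lower and 2 higher. The inducible heat shock gene Hspa1a was 2.84-fold lower (limma adjusted p = 3.68e-05) and Hspb1 was 2.70-fold lower (limma adjusted p = 1.68e-05). Ddit3 and Xbp1, at -0.72 and -0.47, were called lower, and with spike-in scaling stood at -0.12 and 0.0027, neither called.

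Markers of several cell types differed between the genotypes after quantile normalization. Of 12 measured sympathetic neuron markers 9 were called lower and 2 higher, and the log2 of their summed intensity ran from 18.00 to 18.69 in TH-MYCN+/+ and from 19.40 to 19.75 in wild type. For 8 Schwann and satellite glia markers, 7 lower and 1 higher, it was 14.22 to 15.08 in TH-MYCN+/+ and 15.91 to 16.28 in wild type, and for 8 fibroblast markers, all lower, 16.07 to 16.86 in TH-MYCN+/+ and 18.01 to 18.33 in wild type. All 8 endothelial markers were called lower, at 11.13 to 11.76 in TH-MYCN+/+ and 12.05 to 12.58 in wild type. Of 9 macrophage markers 4 were lower and 2 higher, at 12.67 to 13.05 in TH-MYCN+/+ and 12.73 to 13.22 in wild type. For 7 markers of dividing cells, 6 of them higher, the range was 15.10 to 15.81 in TH-MYCN+/+ and 10.51 to 11.52 in wild type. Blood markers were lower for 4 of 4, at 13.75 to 14.65 in TH-MYCN+/+ and 15.46 to 16.59 in wild type, and adipose markers for 4 of 6, at 12.19 to 15.23 in TH-MYCN+/+ and 14.27 to 14.89 in wild type. Of lymphoid markers 1 of 6 was lower, of skeletal muscle markers 1 of 8, and of 8 adrenal cortex markers 0 were called by limma, with 1 higher and 1 lower at an unadjusted p under 0.05. With spike-in scaling the counts were 4 lower and 2 higher for neurons, 5 lower and 1 higher for glia, 6 lower for fibroblasts, 0 for endothelium, 1 lower and 3 higher for macrophages, 4 lower for blood, 0 for adipose tissue and 6 higher for dividing cells. At an unadjusted p under 0.05 in that limma fit, 2 endothelial and 3 adipose markers were lower. No marker of the neuronal, glial, fibroblast, endothelial, macrophage, blood or adipose list was below background on all arrays. The part of these shifts in the results for the immediate early genes was not tested, and in bulk ganglia fewer cells of a type and less RNA per cell cannot be told apart.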

How the data were processed

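Total RNA was isolated with a column kit, labelled with Cy3 and hybridised to 1-colour Agilent arrays, per the labels' protocols. The deposited table holds 1 value per probe and array, read as log2 intensity. The authors' scanner software and background correction are not stated by the labels or the table. Deposited array medians ran from 4.58 to 5.07 in TH-MYCN+/+ and from 3.94 to 4.50 in wild type, so the values had not been aligned between arrays. This shift of whole arrays went with genotype, and the scalings treat it differently. Its cause was not tested. The table held 55821 probes, 140 of them controls. Symbols came from the platform annotation, and 30626 probes with 1 symbol gave 21893 genes, each represented by its brightest probe over all arrays. Array probes were quantile normalized. Background was taken, array by array, as the 95th percentile over 96 ERCC probes, which assumes that no ERCC transcripts were added, and spike-in scaling used 7 of 10 E1A probes. Their mean level ran from 11.29 to 12.77 over the arrays, with an SD of 0.36 within TH-MYCN+/+ and 0.49 within wild type. Spike-in scaling carries this scatter into every gene.

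Genotypes were compared with limma 3.58.1 (R 4.3.3), TH-MYCN+/+ minus wild type, two-sided, with Benjamini-Hochberg adjustment over all 21893 genes and no filter on intensity. The fit was also tested on simulated data. Correlations used exact permutation (numpy 2.4.6). The members and lists were chosen with earlier results of these data known. Named genes were the members, up to 4 genes with the smallest p of each related list, and the genes most correlated with Fos and Egr1. Lists are described by counts and medians only. Alternatives were 4 other scalings, a filter on dim genes, the mean of all probes, every probe by itself, the replicate number as a block, other variance and weight models, and leaving out each array.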

Additional observations from a re-analysis of the deposited data

Results flagged for a closer look

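In groups of 6 and 7 arrays, an array was singled out where its gap to the nearest other array was a large share of the group's range (Dixon's 95% limit), which chance does for about 1 in 20 groups. Of 20 groups tested for the 10 immediate early genes, 2 held such an array. Fosb on wild-type replicate 2 stood at 6.94, where the other wild-type arrays held 5.54 to 6.09. Without that array its log2 fold change was -1.38 in place of -1.54. Ier2 on TH-MYCN+/+ replicate 1 stood at 4.51, where the other TH-MYCN+/+ arrays held 5.27 to 5.69, and without that array its log2 fold change was 0.16 (limma adjusted p = 0.508). Of 36 groups tested for summed list levels, 2 held such an array, both wild-type replicate 3. The summed log2 level of lymphoid markers was 12.8 there, against 9.79 to 10.44 on the other wild-type arrays, and that of the feedback inhibitors and RNA decay genes was 14.8, against 14.10 to 14.34.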

How the results depend on the processing

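Junb was not among the genes above background on 6 or more arrays. Fos and Nr4a1 lost their call with spike-in scaling, Junb with that and as deposited, and Jun with median centring, and the cause was not tested. Fosb and Arc were called lower under every alternative run. Leaving out each array in turn kept 6 members called each time, 5 lower and 1 higher, while all genes called ran from 10942 to 11788 (3799 to 4136 higher, 7143 to 7692 lower). With spike-in scaling 3 members were called, 2 of them lower, and 7258 genes in all, 1579 of them lower. With median centring 0 members were called higher by limma, Jun having an adjusted p of 0.229, and 0 were higher at an unadjusted p under 0.05. In the values as deposited 2746 genes were lower. With every array probe as its own row 23493 probes were called, 10709 higher and 12784 lower, from a table of 55681. The 4 members that did not pass changed sign as deposited (Egr1 0.21, Npas4 0.13, Ier2 0.55, Dusp1 0.34) and with spike-in scaling (0.37, 0.29, 0.71 and 0.50), without passing, and the cause was not tested. Ier2, at -0.0037, also turned positive with centring on the 75th percentile (0.10), the replicate block (0.031) and array weights (0.020). It was 0.0044 without the 4 arrays on which markers of neighbouring tissue stood out, an alternative chosen after seeing the data. Without 1 array it ran from -0.093 to 0.16. Dusp1 ran from -0.093 to 0.0093 without 1 array. With spike-in scaling Klf10 (0.059), Myc (0.043) and Xbp1 (0.0027) changed sign. The numbers did not pair the samples (correlations of deviations -0.13 to 0.05), and with the replicate number as a block 10537 genes and 6 members were called. The number of arrays limits the precision, and Junb is limited by its signal over background.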
